A study of Mus musculus with 4 samples.

Results

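Carboxylesterases are serine hydrolases that split ester bonds. The enzymes of this family are abundant in the endoplasmic reticulum of liver and intestine, where they hydrolyse ester drugs, other foreign esters and stored lipids, and in the mouse they are encoded by runs of neighbouring genes that arose by duplication. This account covers 10 mouse carboxylesterase genes on chromosome 8, which were chosen by name and placed by their annotated starts into the topologically associating domains (TADs) of hepatocytes grown in 2D and in 3D. They are Ces1b, Ces1c, Ces1d, Ces1e, Ces1f and Ces1g of the Ces1 group, Ces2a and Ces2c of the Ces2 group, and Ces3a and Ces3b of the Ces3 group, and they make up 10 of the 20 carboxylesterase genes considered and 10 of the 21755 protein-coding genes of the annotation. Each of the 10 was found in the annotation, and the rule that names them uses no measured value, although earlier results of these data were known when they were chosen.

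The study measured chromatin contacts by in situ Hi-C in AML12 cells, an immortalized mouse hepatocyte line. Each culture had 2 biological replicates, which makes 4 samples. The 2D-cultured cells grew on dishes and the 3D-cultured cells grew embedded in Matrigel, a gel of extracellular matrix proteins. Both cultures received 1 mM hydroxyurea, an inhibitor of DNA replication, with an exposure of 24 h (2D) or 36 h (3D), so the time in the drug differed along with the growth dimension and the effects of these cannot be told apart. A TAD is a stretch of chromosome whose sequences contact each other more often than they contact the flanks, and a border is a position where such a stretch starts or ends.

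The values analysed here are 1 deposited list of TADs per culture, with 4467 TADs in 2D and 4355 in 3D, of which 202 and 201 lie on chromosome 8. Because the replicates were combined before TADs were called, there is no replicate error on any value here and no test of the cultures could be made. No contact or read numbers accompany the single TADs in the lists, so the number of contacts that each TAD or border rests on is not known. All positions sit on a grid of 40 kb bins, which is the precision of every TAD end. The lists hold no expression values, so neither the hepatocyte label nor the activity of the Ces genes was checked.

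Short sequences found within 40 kb of the ends of the TADs that hold these genes are shown first, since the borders are the measured outcome. CTCF is a DNA-binding protein that occupies many TAD borders, and the letters AGGGGGCGC, which form part of its consensus, were searched on both strands of the genome (GRCm38.p6, the build that mm10 names). The TADs that hold the members had 5 distinct ends over both lists. Of these, the ends at 92400000 and at 105120000 had 2 matches each within 40 kb, and the other 3 had none. The 4 matches are printed 5′ to 3′ on their own strand with the letters searched in capitals and 14 bases on each side. They lie at chr8:92360001-92360009 on the plus strand inside the body of Irx5 but in none of its exons, at chr8:92377455-92377463 on the minus strand between genes, at chr8:105121142-105121150 on the plus strand between genes, and at chr8:105152978-105152986 on the minus strand between genes.
match at 92360001: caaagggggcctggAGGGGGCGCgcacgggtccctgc
match at 92377455: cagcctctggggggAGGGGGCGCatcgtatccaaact
match at 105121142: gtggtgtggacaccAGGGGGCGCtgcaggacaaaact
match at 105152978: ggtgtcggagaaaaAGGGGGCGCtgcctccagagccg

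The match at 105121142 lay 1.14 kb from the border at 105120000, which separates Ces3b from Ces4a in both lists. The match at 92360001 lay at the limit of the 40 kb range. Farther from the ends, the letters also occurred inside the TADs with members. These matches began at 92454885, 92673858 and 93415571 in the Ces1 TAD and at 104757159 in that of Ces2 and Ces3. Over the genome the letters occurred 5192 times. They were found within 40 kb of 23.4% of the 2D borders, 23.7% of the 3D borders and 13.4% of all bin limits between the first and the last border of a chromosome. A match describes letters in a window and does not show that a protein was bound.

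The promoters of 3 genes beside the borders are shown next because they start beside 2 of the ends. Ces5a is the coding start closest to the 3D end of the Ces1 TAD, and Ces3b and Ces4a lie on either side of the end at 105120000. The coding start closest to the 2D end of the Ces1 TAD was that of Gnao1, at 49.97 kb. Ces5a starts 24.2 kb from the 3D border that closes the Ces1 TAD. Ces3b and Ces4a start 36.2 kb before and 11.8 kb after the border at 105120000. The sequences are RefSeq promoter windows of 300 bases on GRCm38.p6, at chr8:93535791-93536090 on the minus strand for Ces5a, chr8:105083505-105083804 on the plus strand for Ces3b and chr8:105131550-105131849 on the plus strand for Ces4a. Capitals mark GATC, the site that the restriction enzyme MboI cuts in this assay.
Ces5a: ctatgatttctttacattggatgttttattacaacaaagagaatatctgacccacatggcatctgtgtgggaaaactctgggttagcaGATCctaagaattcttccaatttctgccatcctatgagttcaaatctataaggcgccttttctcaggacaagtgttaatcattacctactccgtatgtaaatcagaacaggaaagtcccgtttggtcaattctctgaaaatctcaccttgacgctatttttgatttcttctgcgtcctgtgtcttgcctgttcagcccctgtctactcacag
Ces3b: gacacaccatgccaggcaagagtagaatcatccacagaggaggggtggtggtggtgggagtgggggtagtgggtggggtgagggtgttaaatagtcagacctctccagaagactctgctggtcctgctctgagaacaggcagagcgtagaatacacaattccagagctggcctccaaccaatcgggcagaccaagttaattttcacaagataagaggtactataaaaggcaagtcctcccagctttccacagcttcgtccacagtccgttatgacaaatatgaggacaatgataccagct
Ces4a: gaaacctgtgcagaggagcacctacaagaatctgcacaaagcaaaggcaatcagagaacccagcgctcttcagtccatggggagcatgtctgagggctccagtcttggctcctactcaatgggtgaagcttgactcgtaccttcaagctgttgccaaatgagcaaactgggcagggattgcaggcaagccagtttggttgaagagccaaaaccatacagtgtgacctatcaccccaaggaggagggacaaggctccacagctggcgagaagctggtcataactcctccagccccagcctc

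Ces5a had 1 GATC in its window, and Ces3b and Ces4a had none. GATC, which reads the same on both strands, occurred in 48.0% of the 32851 RefSeq promoter windows. The letters TATAAA, found on either strand in 13.6% of the windows, had 1 match in the Ces3b window and none in those of Ces5a and Ces4a. CCAAT, found in 37.4%, had 2 matches in the Ces5a window, 1 in that of Ces3b and none in that of Ces4a. CAAAGTCCA, a form of the element bound by the liver factor HNF4 and found in 0.475%, had no match in these 3 windows. Promoter windows were matched for 7 of the 10 members, and those of Ces1d, Ces1f and Ces3a are named only.

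All 10 members started inside a TAD in 2D and all 10 did so in 3D, with the whole gene body inside it each time. Of all protein-coding gene starts, 76.7% lay inside a TAD in 2D and 83.5% in 3D. The members fell into 2 TADs per list, 1 for the Ces1 group and 1 for the Ces2 and Ces3 groups together, separated by 11397 kb between the last base of Ces1g and the first of Ces2a. Of the 45 pairs of members, 21 shared a TAD in 2D and 21 in 3D. These were the 15 pairs within Ces1, the pair within Ces2, the pair within Ces3 and the 4 pairs of a Ces2 with a Ces3 gene, while no Ces1 gene shared a TAD with a Ces2 or Ces3 gene. Members of 1 cluster thus shared a TAD in 21 of 21 pairs in each list. Among all pairs of protein-coding starts no farther apart than the farthest of these (349.75 kb), 34.1% shared a TAD in 2D and 40.1% in 3D. Those pairs were not matched to the member pairs in distance or in the size of the TAD. The member pairs overlap in their genes and are not independent of each other. Nor are the members, since those of 1 cluster lay in the same TAD.

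The groups differed in what happened to their TAD between the lists. The 4 Ces2 and Ces3 members lay in a TAD with identical ends in 2D and 3D. The 6 Ces1 members lay in a TAD that began at the same base in both lists but ended 200 kb earlier in 3D. With an allowance of 40 kb at both ends, 4 of the 10 members were therefore in a shared TAD, against 49.7% of all protein-coding starts, and with no allowance the same count of 4 stood against 35.1%. The count depends on this rule. Where sharing was instead defined by a reciprocal overlap of 80%, all 10 members were in a shared TAD. The 6 Ces1 members lay in the same TAD in each list, and so did the 4 others. The members are therefore not independent of each other, and the count turns on the end of the Ces1 TAD.

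The Ces1 group holds esterases of liver and plasma. Ces1d is known as triacylglycerol hydrolase and releases stored fat, Ces1c is an esterase of plasma, and Ces1e is egasyn, which retains beta-glucuronidase in the endoplasmic reticulum. The 6 members span 280.6 kb, from chr8:93056728 to chr8:93337308, and all are read from the minus strand. In 2D they lay in the TAD chr8:92400001-93760000, of 1360 kb, and in 3D in the TAD chr8:92400001-93560000, of 1160 kb. The 3D TAD kept 85.3% of the length of the 2D TAD. Both were long for their list, since 90.5% of the 2D TADs and 88.1% of the 3D TADs were shorter.

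**Figure D1:**
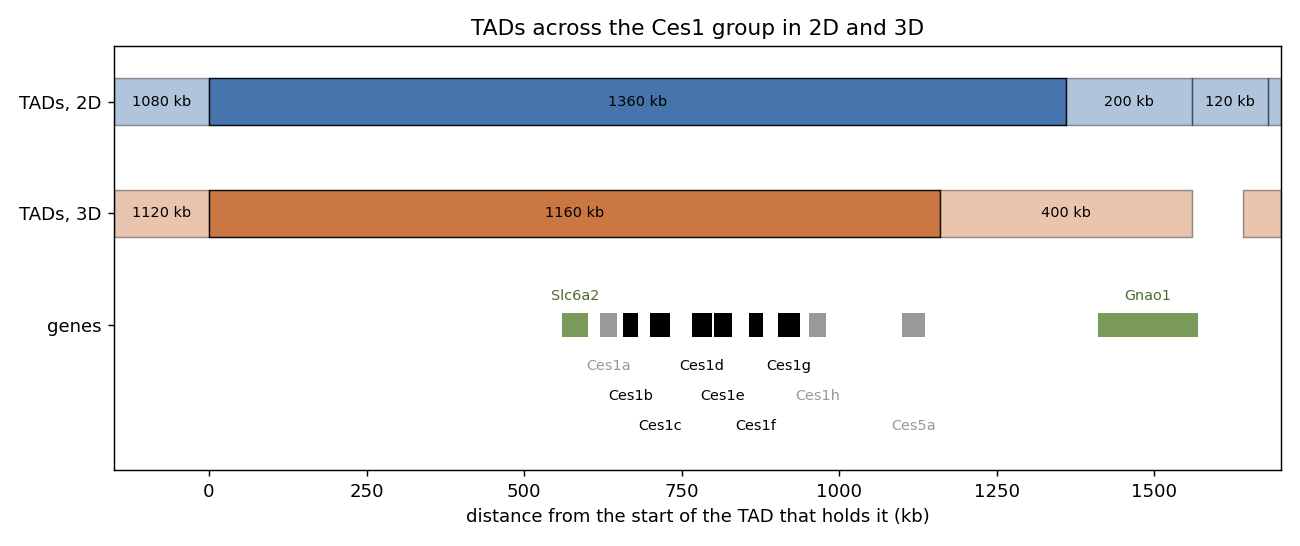
TADs around the Ces1 group in 2D (blue) and 3D (orange), plotted by distance in kb from the start of the TAD that holds the group; darker bars are the TADs with members, labels give full sizes, and bars at the edges are cut off. Black boxes are members, grey boxes other carboxylesterase genes and green boxes the nearest other coding genes; the 1360 kb TAD in 2D and the 1160 kb TAD in 3D start together and end 200 kb apart, beyond Ces5a.

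The distances of the Ces1 starts to the nearest border followed from that end. Ces1b, whose start at 93080017 lay almost at the centre of the 2D TAD, was 680.0 kb from the nearest border in 2D and 480.0 kb in 3D. Ces1c, with its start at 93131283, was 628.7 kb away in 2D and 428.7 kb in 3D. Ces1d, with its start at 93197838, was 562.2 kb away in 2D and 362.2 kb in 3D. Each gene came 200 kb nearer to a border in 3D and still lay deep inside its TAD. Ces1e, with its start at 93229619, stood at 530.4 kb and 330.4 kb. Ces1f, with its start at 93279747, stood at 480.25 kb and 280.25 kb. Ces1g, the member nearest to the moved end with its start at 93337308, stood at 422.7 kb and 222.7 kb.

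**Figure D2:**
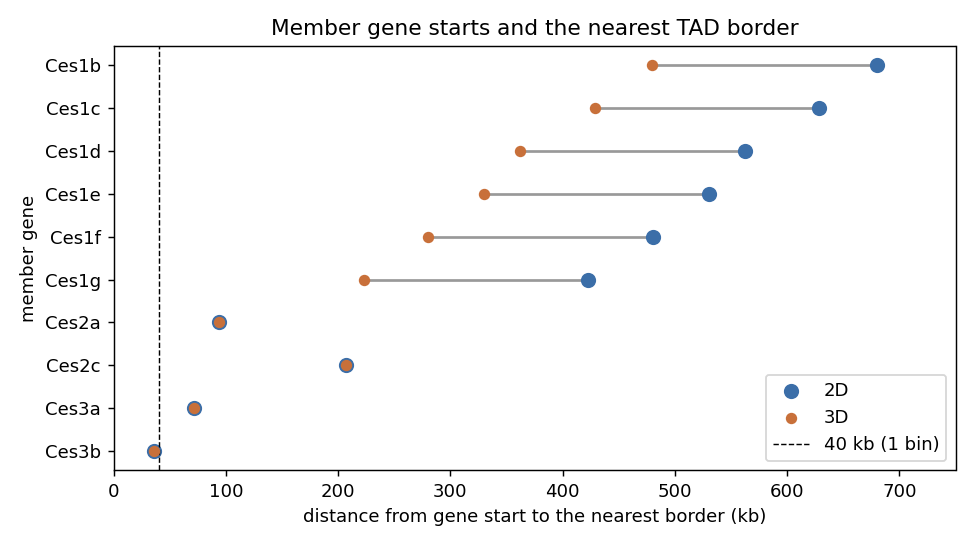
Distance in kb from the start of each member gene to the nearest TAD border in 2D (blue) and 3D (orange), with grey lines joining the values of a gene and a dashed line at 40 kb, which is 1 bin. The 6 Ces1 genes sit 200 kb nearer to a border in 3D, the Ces2 and Ces3 genes have the same value in both lists, and Ces3b alone lies within 40 kb.

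The stretch between the 2 ends, chr8:93560001-93760000, belonged to the Ces1 TAD in 2D and to the next TAD in 3D. It held 4 annotated gene starts and no coding start. The lincRNA genes Gm45708, Gm26843 and Gm30606 started there, and so did Gm45786, which GENCODE puts in its provisional class TEC. In 3D this stretch shared the TAD chr8:93560001-93960000, of 400 kb, with the start of Gnao1, which encodes a G protein subunit of neurons. In 2D the start of Gnao1 lay in the TAD chr8:93760001-93960000, of 200 kb, without the stretch. Both of these TADs ended at the same position.

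Within 500 kb of the Ces1 members there was 1 border in each list, at 93760000 in 2D and at 93560000 in 3D, and neither had a counterpart within 40 kb. In the whole lists, 18.1% of borders had no counterpart within 40 kb in 2D, and 11.9% had none in 3D. The lack of a counterpart near Ces1 was limited to this window, since a window of 1000 kb held 6 borders in 2D and 5 in 3D. Among these, the other end of the Ces1 TAD, at 92400000, and the border at 93960000 had the same position in both lists. TADs that keep 1 end and shorten by more than 40 kb in 3D, as the Ces1 TAD did, made up 3.92% of the 2D TADs, and those that keep 1 end and lengthen made up 13.3%. The same move of 1 border put the next TAD, with the start of Gnao1, in the lengthened class. Over the 806 pairs of a 2D and a 3D TAD with 1 end in common and the other over 40 kb apart, where a 2D TAD can enter once for each of its ends, the other ends lay a median of 160.0 kb apart. Of the 2D TADs of at least 1000 kb, 65.4% had a 3D TAD with the same ends within 40 kb.

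The coding neighbours of the members in the Ces1 TAD were the same in both lists, while its gene starts of every kind numbered 31 in 2D and 27 in 3D. Ces1a, Ces1h and Ces5a, the other carboxylesterase genes of the cluster, lay in it in 2D and in 3D, so that all 9 genes of this cluster shared 1 TAD. Their 8 gaps between neighbouring starts had a median of 50.7 kb, a smallest value of 31.8 kb and a largest of 156 kb, and no other coding gene started between them. At lower coordinates, which is the 3′ side of these minus-strand genes, the TAD held Irx6, Mmp2, Lpcat2, Capns2 and Slc6a2, of which Slc6a2, the noradrenaline transporter, was the nearest. With 14 coding starts, the TAD had more than 97.3% of the 2D TADs and more than 96.3% of the 3D TADs, but per length it had 10.3 coding starts per Mb in 2D and 12.1 in 3D, against a median of 8.33 in both lists.

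The Ces2 and Ces3 groups encode further microsomal esterases. Their 4 members span 359.9 kb, from chr8:104734003 to chr8:105093929, and are read from the plus strand. They lay in the TAD chr8:104640001-105120000, of 480 kb, in 2D and in 3D. This TAD was longer than 74.0% of the 2D TADs and 72.1% of the 3D TADs. It held 10 coding starts, or 20.8 per Mb, and 78.6% of the 2D TADs and 77.7% of the 3D TADs had a lower density.

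**Figure D3:**
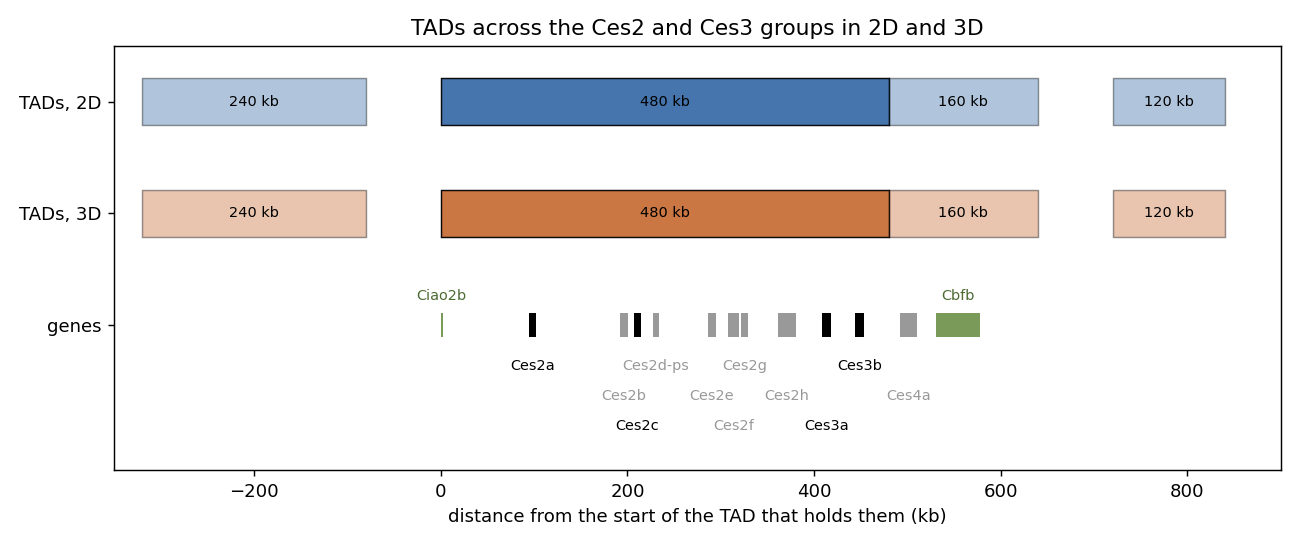
TADs around the Ces2 and Ces3 groups in 2D (blue) and 3D (orange), plotted by distance in kb from the start of the TAD that holds them; darker bars are the TADs with members and labels give sizes. Black boxes are members, grey boxes other carboxylesterase genes and green boxes the nearest other coding genes; every bar drawn has the same ends in both lists, and Ces4a lies beyond the end of the 480 kb TAD.

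Ces2a, with its start at 104734003, lay 94.0 kb from the border at 104640000 in both lists. Ces2c, with its start at 104847068, lay 207 kb from the same border. Ces3a, with its start at 105048601, lay 71.4 kb from the border at 105120000. Ces3b, with its start at 105083753, lay 36.2 kb from it and was the only member within 40 kb of a border. That is 1 of 10 members in each list, where 41.1% of all protein-coding starts lay within 40 kb of a border in 2D and 38.7% in 3D. The member count was 0 within 20 kb and 2 within 80 kb in both lists. Here too the members share their TADs and are not independent of each other.

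The same TAD held Ces2b, Ces2d-ps, Ces2e, Ces2f, Ces2g and Ces2h, of which Ces2d-ps is a pseudogene, and the start of Ciao2b, a factor of iron-sulphur protein assembly, 1.96 kb inside the border at 104640000. The body of Ciao2b ran across that border. Ces4a, the last gene of the cluster, lay in the next TAD, chr8:105120001-105280000, of 160 kb, together with Cbfb, a subunit of the core-binding transcription factor. Thus 9 of the 10 gaps between neighbouring genes of this cluster lay within 1 TAD, and the gap of 48.0 kb from Ces3b to Ces4a did not, in either list. Within 500 kb of the Ces2 and Ces3 members there were 9 borders in each list, and all 9 had the same position in the other list. Over the genome, 64.1% of the 2D borders were at the position of a 3D border, and 69.8% of those in 3D were at the position of a 2D border. At 105120000 2 TADs met, and the other 8 faced stretches of 80 kb in no TAD, such as chr8:104560001-104640000 with the starts of Pdp2, Cdh16 and Rrad. The full match was limited to this window, since a window of 1000 kb held 13 borders in 2D and 10 in 3D. There, chr8:105560001-106040000 was 1 TAD of 480 kb in 3D, where 2D had shorter TADs such as chr8:105560001-105680000, of 120 kb.

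A list of 14 other ester and lipid hydrolase genes (Aadac, Ache, Bche, Faah, Lipa, Lipc, Lipe, Lpl, Mgll, Nceh1, Pnpla2, Pnpla3, Pon1 and Pon3) was placed in the same way. Of these, 10 started inside a TAD in 2D and 11 in 3D. Of the 14, 6 were in a shared TAD within 40 kb, and 4 in 2D and 5 in 3D started within 40 kb of a border. Lpl, the lipoprotein lipase of blood vessels and also on chromosome 8, lay in a TAD of 720 kb in 2D and 240 kb in 3D. Pon1 and Pon3, a pair of neighbouring esterase genes, lay together in a TAD of 1920 kb in both lists. None of these genes is a member, and no difference from the members was tested.

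Reads from near-identical copies are harder to place, so the likeness of the members in sequence is given here. Gene symbols of a family follow homology, so the higher identity within Ces1, Ces2 and Ces3 is a description that the choice by name largely fixes. The coding sequences of the 6 Ces1 members share 1 run of 26 identical bases, the longest that all of them hold. It is printed below in capitals with 9 bases on each side, from the minus strand of GRCm38.p6, and lies in exon 12 of Ces1c and exon 13 of the others. The windows are chr8:93057355-93057398 for Ces1b, chr8:93100653-93100696 for Ces1c, chr8:93169720-93169763 for Ces1d, chr8:93201840-93201883 for Ces1e, chr8:93256863-93256906 for Ces1f and chr8:93305816-93305859 for Ces1g.
Ces1b: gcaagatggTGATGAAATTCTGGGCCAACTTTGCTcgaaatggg
Ces1c: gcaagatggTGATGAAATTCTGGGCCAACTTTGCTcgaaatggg
Ces1d: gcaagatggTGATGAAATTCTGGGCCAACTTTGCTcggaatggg
Ces1e: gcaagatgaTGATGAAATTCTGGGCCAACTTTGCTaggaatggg
Ces1f: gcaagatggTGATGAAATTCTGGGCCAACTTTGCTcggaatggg
Ces1g: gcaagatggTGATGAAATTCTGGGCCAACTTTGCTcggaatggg

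Within Ces1 the identity of the coding sequences ran from 71.8 to 88.8% over 15 pairs, with the highest value for Ces1b and Ces1c, which are neighbours. Ces2a and Ces2c were 82.4% identical and Ces3a and Ces3b 95.3%. Between the Ces1 and Ces2 members identity ran from 56.0 to 58.4%, between Ces1 and Ces3 from 54.5 to 56.7%, and between Ces2 and Ces3 from 57.7 to 59.2%. The values between Ces2 and Ces3, which shared a TAD, lay above those between Ces1 and Ces3 and overlapped those between Ces1 and Ces2.

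**Figure D4:**
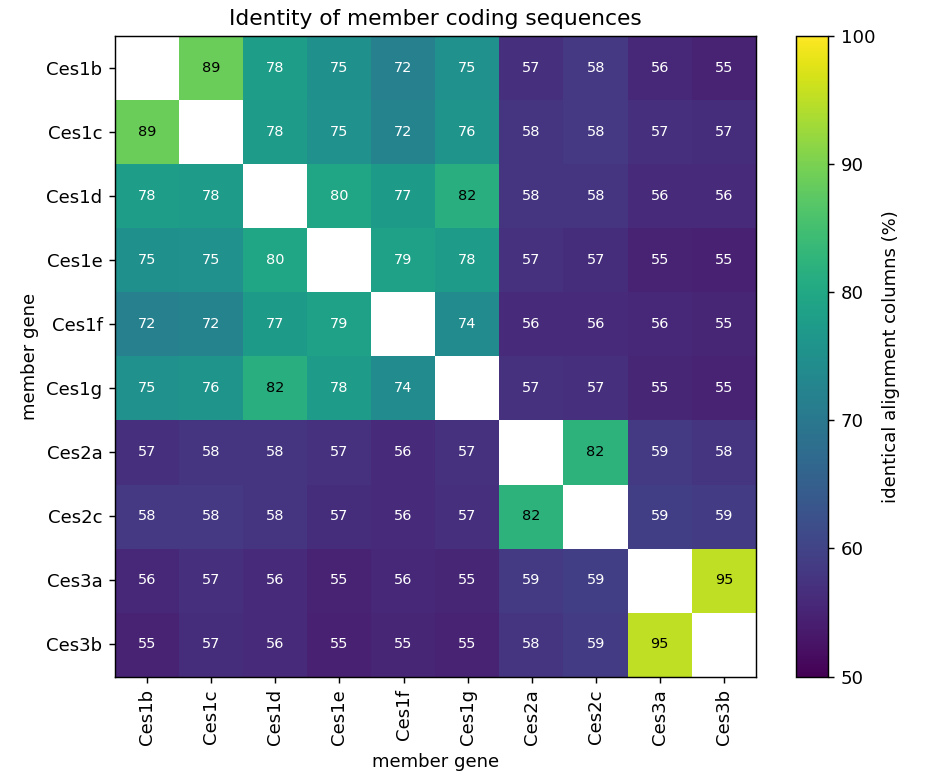
Identity of the coding sequences of the 10 members, as the percentage of identical columns in a pairwise alignment, by colour and number (rounded). The blocks of Ces1, Ces2 and Ces3 stand out against values of 54.5 to 59.2% between groups, and the highest value is 95.3% for Ces3a with Ces3b.

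The authors first mapped 30 bases of each read end and lengthened the piece where it was not unique. Of the 30-base words in its coding sequence, Ces3a shared 44.95% with another gene of the family, and so did Ces3b. The share was 27.7% for Ces1c, 25.2% for Ces1b and 24.9% for Ces2c. It was 12.0% for Ces2a, 11.3% for Ces1e, 9.72% for Ces1d, 8.76% for Ces1g and 6.17% for Ces1f. Over the 40 kb bins, a median of 6.88% of 30-base words recurred elsewhere on chromosome 8. In the 8 bins across the Ces1 members the median was 13.8%, with a highest value of 32.3%. In the 10 bins across the Ces2 and Ces3 members it was 26.7%, with a highest value of 76.8% in the bin that starts at 104840001 and holds Ces2c. The 5 bins of the stretch that changed TAD had a median of 2.86%, with a highest value of 18.2%. The MboI sites per bin had a median of 116 across either set of members, 101 in that stretch and 98.0 on the chromosome. The part of repeated sequence in the calls of these TADs was not tested.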

How the data were processed

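In situ Hi-C was measured in 4 samples, 2 of AML12 cells in 2D and 2 in 3D, grouped by the labels. The 2 deposited files used here hold another kind of value than counts, TAD starts and ends in base pairs of mm10, called by the authors, in 1 list per culture. Per the study's methods and the submitters' processing notes, the authors mapped reads iteratively with Bowtie2 (2.2.9), kept pairs with mapping quality above 30, combined replicates, normalized 40 kb matrices with ICE, equalized depth per chromosome and called TADs with Armatus (1.0, gamma 0.8). The lists give no depth per TAD.

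Genes were placed by their 5′ ends in GENCODE M21 with Python (3.11.15), numpy (2.4.6), pandas (2.3.3) and Biopython (1.88); plots were drawn with matplotlib (3.10.9). A border is any distinct TAD start or end, and borders or TAD ends within 40 kb count as shared. Coordinates are 1-based, and a border is named by the last base before it. Coding sequences, the longest per gene, were aligned pairwise (match 2, mismatch -1, gap open -5, gap extension -1). The scripts were tested on simulated lists, where 8 of 8 measures were recovered. The named genes are the 10 members, the other 10 carboxylesterase genes, the nearest other coding genes and 14 hydrolases. Members and lists were chosen with earlier results of these data known. The alternatives were gene midpoints or whole bodies, larger TADs, other distances, windows and overlaps, and, chosen after seeing the data, RefSeq gene starts. Contact matrices and RNA-seq were not analysed here.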

Additional observations from a re-analysis of the deposited data

How the results depend on the processing

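Of 60 values under the alternatives, 38 kept their result within 1.5 times, and 22 did not. All 7 values with RefSeq gene starts, an alternative chosen after seeing the data, were the same. Placing genes by midpoint left the member counts, the pair counts and the TAD sizes as they were, and asking for the whole gene body left the counts of members inside a TAD and of pairs in 1 TAD as they were; neither bears on the counts of borders near the groups. The count of 4 members in a shared TAD became 10 with a reciprocal overlap of 80% and 10 with one of 50%, since the Ces1 TADs overlap by more than that. The count of 1 member near a border in each list became 0 within 20 kb and 2 within 80 kb, in 2D and in 3D. Near Ces1, the count of 1 border in 2D became 0 in a window of 250 kb and 6 in one of 1000 kb, and the count of 1 in 3D became 5 in the wider window. Near Ces2 and Ces3, the count of 9 became 1 in both lists where only positions at which 2 TADs meet were kept, 4 in both lists in a window of 250 kb, 13 in 2D and 10 in 3D in a window of 1000 kb, and 5 in 2D and 6 in 3D once TADs under 200 kb were dropped. The shared borders near all groups, 9 in each list, became 1 where TADs meet, 4 in the narrower window, 15 in 2D and 14 in 3D in the wider window, and 5 in each list without TADs under 200 kb. These counts are drawn from the borders of both groups together, whose numbers change with the same settings, so they do not measure the share of borders kept. No paired analysis was possible because the replicates of a culture were combined into 1 list before TADs were called, and for the same reason no replicate could be left out. The grid of 40 kb limits every position, and without contact numbers per TAD the error of each border is unknown.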
